A study of Mus musculus with 10 samples.

Results

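The cytosolic ribosomal protein genes were taken as all gene symbols that begin with Rpl or Rps followed by a number and at most 1 further letter with a number, together with *Rplp0*, *Rplp1*, *Rplp2* and *Rpsa*. This rule found 84 of the 24052 gene symbols in the count tables and used no measured value. RNA had been sequenced from the livers of 5 wild-type mice and 5 Ndrg3 LKO mice, fed ad libitum, on a background labelled C57BL/6 (C57BL/6N in the study's methods). All of these livers are used here. The legend of the study's RNA heatmap counts fewer Ndrg3 LKO livers, without saying which was left out. The methods give an age of 8 to 10 weeks, and a legend gives an older one for the same livers. Ndrg3 LKO mice are homozygous for a floxed *Ndrg3* allele, from which the albumin-promoter Cre transgene (Alb-Cre) removes the floxed part in hepatocytes, and wild-type littermates served as controls. Whole liver was sequenced, so other liver cells, which keep the gene, are part of every sample, and fewer cells of a type cannot be told apart from less RNA per cell.

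The cytosolic ribosome joins amino acids into proteins and consists of a large and a small subunit, built of ribosomal RNA and many small proteins that are needed in equal numbers and mostly have no more than a single active gene. The messenger RNAs of these genes begin with a run of pyrimidines at the cap (the terminal oligopyrimidine start), through which growth signals of the mTORC1 kinase and the RNA-binding protein LARP1 regulate their translation and stability. Several genes also have a paralog with a restricted or low expression, and many carry small nucleolar RNA genes (snoRNAs) in their introns. In the liver the ribosomes of hepatocytes supply the plasma proteins, and their genes are among the abundant messages of the tissue.

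*Ndrg3* itself was read at a mean of 18.5 ± 2.22 CPM in wild-type and 8.07 ± 0.761 CPM in Ndrg3 LKO livers (SD, n = 5 each), where CPM are counts per 1e6 counts of a library after TMM scaling. Its log2 fold change was −1.20 (SE 0.13, adjusted p = 3.87e-05 by the quasi-likelihood test of edgeR after Benjamini-Hochberg adjustment), and the groups did not overlap. Between 20872262 and 24747870 reads were counted per wild-type library and between 23474693 and 30450057 per Ndrg3 LKO library. The first principal component held 68.7% of the variance, and Ndrg3 LKO replicate 5, at 14.1, stood apart from the other Ndrg3 LKO livers at 51.1 to 56.6. The summed level of 7 hepatocyte markers was 132900 to 175000 CPM in wild-type livers, 33100 to 40670 in Ndrg3 LKO replicates 1 to 4 and 142500 in replicate 5. *Alb* made up most of this sum. Of the 7, 4 were called lower (*Alb*, *Apoa1*, *Ttr* and *Cyp2e1*), and *Cps1*, *Asgr1* and *Serpina1a* were not called (edgeR adjusted p = 0.77, 0.574 and 0.137). In replicate 5 *Alb*, *Ttr*, *Cps1* and *Asgr1* were within the wild-type range. *Serpina1a* was above it there (3900 against 2020 to 3086 CPM) and *Apoa1* below it (14020 against 16790 to 24990). *Cyp2e1*, at 1383 CPM in replicate 5, was near the other Ndrg3 LKO livers (722.6 to 1328). The wild-type livers had 12250 to 14320 CPM of it. Markers of Kupffer cells and macrophages (6 of 6 higher, sum 61.0 to 145.5 against 145.9 to 463.8), endothelial cells (4 of 5 higher, 32.8 to 43.5 against 62.8 to 78.7), stellate cells (3 of 5 higher, 104 to 167 against 192 to 272) and dividing cells (4 of 4 higher, 2.7 to 6.14 against 8.53 to 66.5) were higher in Ndrg3 LKO livers. *Dcn* made up most of the stellate sum, and *Reln* (log2 fold change 0.39) and *Des* (−0.62) were not called (edgeR adjusted p = 0.0585 and 0.408). Over all genes tested, 25.6% were called higher and 23.0% lower. Of the other lists, *Ptprc* was the 1 lymphocyte marker tested and was higher, 1 of 4 biliary markers was lower, and *Alas2* was the 1 red-cell marker tested and was lower, while *Hbb-b1* and *Hba-a1* were listed at 0 in every liver. The part of these markers' cells in the results below was not tested, beyond the values of replicate 5 given beside them.

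The messages of the family are known for their start, so the starts of a few genes are shown. RefSeq start sites on the GRCm38.p6 assembly were at hand for 63 of the 84 genes. These are annotated starts, and the first base of the messages in these livers was not measured. An unbroken stretch of at least 5 pyrimidines, counted from a C within 5 bases of the start whether or not further pyrimidines precede that C, was present in 29 of the 63, or 46.0%, against 21.2% of 27025 genes with a start. Where the base before the C had to be a purine, a condition added after the data had been seen, 17 of the 63 had it, or 27.0%, against 14.5% of all genes. The 30 bases around the start (15 before and 15 from the start on) are printed below 5′ to 3′ for 3 genes that rose more than the rest of the family and 3 that rose less, as described further on, with the stretch counted from the C in capitals. In *Rpl35*, *Rps26*, *Rpl28* and *Rpl7a* the run goes on to the left of the capitals.

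Rpl13a (chr7:45128731-45128760, minus strand): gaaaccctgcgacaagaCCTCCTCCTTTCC

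Rpl35 (chr2:39005117-39005146, minus strand): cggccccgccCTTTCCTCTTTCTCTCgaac

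Rps26 (chr10:128626492-128626521, minus strand): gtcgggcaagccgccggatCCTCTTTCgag

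Rpl28 (chr7:4792950-4792979, plus strand): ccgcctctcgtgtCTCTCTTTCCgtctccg

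Rpl7a (chr2:26910792-26910821, plus strand): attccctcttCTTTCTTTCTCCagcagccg

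Rps18 (chr17:33955651-33955680, minus strand): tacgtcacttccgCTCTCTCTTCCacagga

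The stretch was thus found both in genes that rose and in genes for which no rise was called. Over the tested genes with a RefSeq start, the median log2 fold change was 0.63 for the 28 with the stretch, of which 19 were called higher, and 0.49 for the 30 without it, of which 18 were called higher. In the whole family 65.4% of the tested genes were called higher, and 25.6% of all genes tested. *Rps12*, *Rps19* and *Rps16*, among the largest rises, had no such stretch at the listed starts, and neither had *Rpl10a* nor *Rpl10*. Some genes counted as without it had a pyrimidine run outside the searched bases, such as ccttttc downstream in *Rps12* and ttccttttcc upstream in *Rpl4*. A missing stretch at a listed start thus does not show that the message lacks it. The comparison with and without it sorts genes by annotated start only. Upstream, the letters CCGGAA on either strand, the core of the binding site of ETS factors, stood within the 300 bases from 250 before to 50 after the start in 55.6% of the family's genes and in 16.7% of all genes. AANATGGC, the core of the YY1 site, was found in 20.6% against 6.96%, and GGGCGG, the core of the SP1 site, in 61.9% against 38.2%. TATAAA was found in 11.1% against 15.7% and CACGTG, the E-box, in 9.52% against 8.09%. The tested genes with CCGGAA had a median log2 fold change of 0.50 (32 genes) and those without it 0.61 (26 genes). The promoter of *Rpl13a*, shown as an example of these letters in a gene that rose, holds AANATGGC and the reverse complement of GGGCGG in the 150 bases before the start and the 15 from the start on, both in capitals.

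Rpl13a promoter (chr7:45128731-45128895, minus strand): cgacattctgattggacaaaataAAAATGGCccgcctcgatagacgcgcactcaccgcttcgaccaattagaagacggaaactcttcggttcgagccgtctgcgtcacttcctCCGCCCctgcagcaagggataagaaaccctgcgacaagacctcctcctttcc

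Of the 84 genes, 78 had at least 1 CPM in at least 5 livers and were tested. Among these 78, 51 were higher in Ndrg3 LKO livers and 0 were lower at an adjusted p of 0.05 by edgeR's quasi-likelihood test, where over all 11208 genes tested 25.6% were higher and 23.0% lower. At an unadjusted edgeR p under 0.05, 58 were higher and 0 lower, a threshold at which the share of all genes was not counted. DESeq2 called 56 higher and 0 lower, against 26.9% and 24.9% of all genes. For limma the numbers were 52 and 0, against 25.1% and 24.1%. The fitted log2 fold change was above 0 for 76 of the 78, against 51.8% of all genes. The median log2 fold change of the 78 genes was 0.56, against 0.03 for all genes tested, with a range from −0.12 for *Rps4l* to 1.28 for *Rps12*. In 29 of the 78 every Ndrg3 LKO liver was above every wild-type liver, against 15.6% of all genes, and in 0 was every Ndrg3 LKO liver below, against 15.9%. Without Ndrg3 LKO replicate 5, 50 were called higher, all among the 51, against 28.0% of all genes in that fit, and 30 did not overlap, against 21.6% of all genes.

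**Figure D1:**
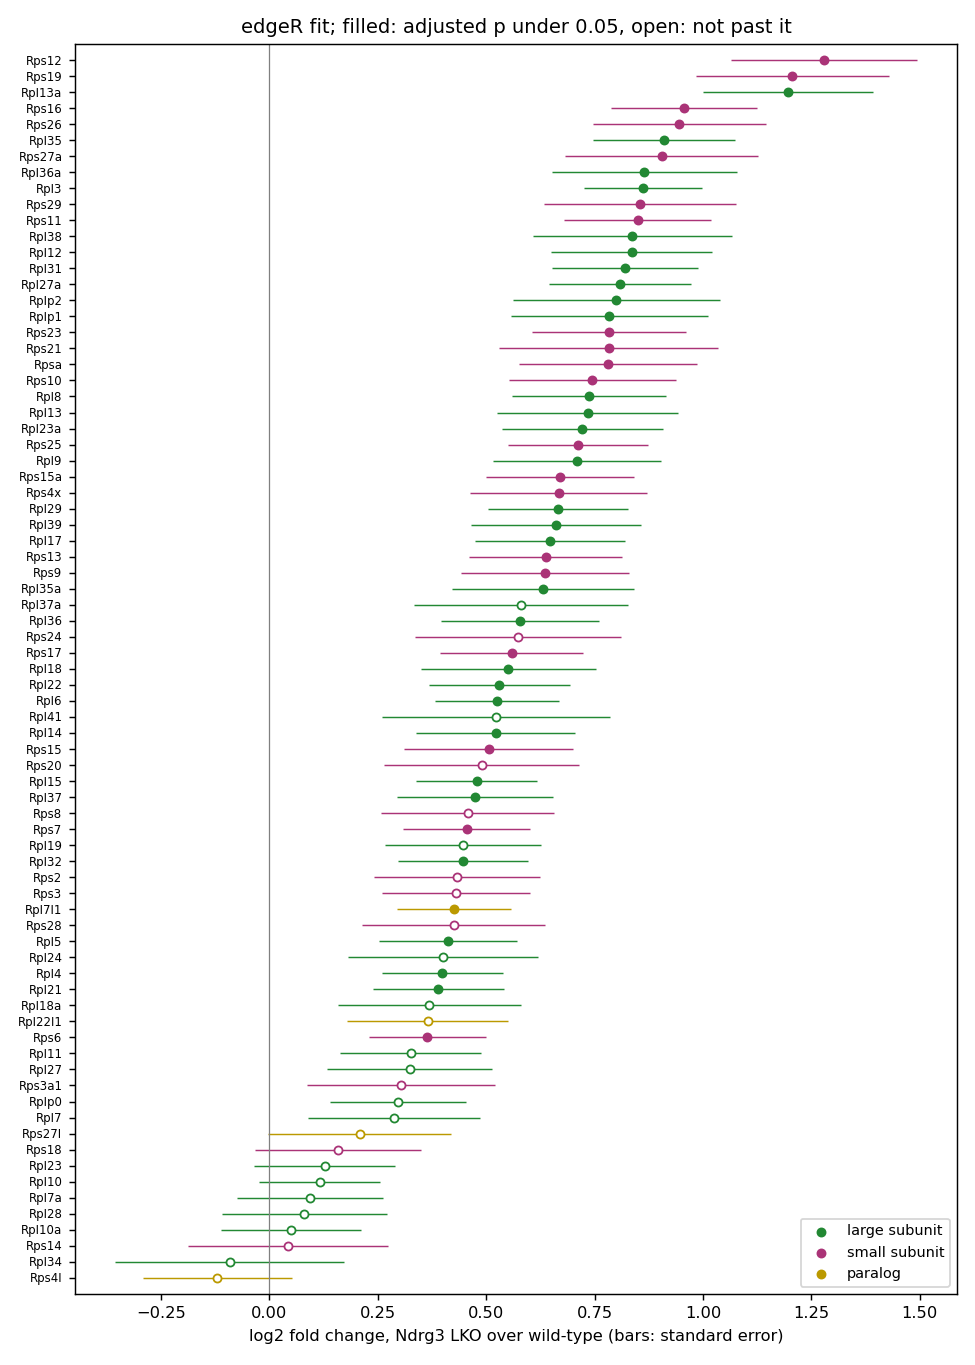
Log2 fold change of 77 of the 78 tested ribosomal protein genes, Ndrg3 LKO over wild-type, from the edgeR fit, with bars of 1 standard error, coloured by subunit. The 50 filled points passed an adjusted p of 0.05 and all lie to the right of 0, and 2 points, *Rpl34* and *Rps4l*, lie to its left.

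Together the 84 genes took 1.84, 1.94, 2.19, 1.73 and 2.30% of all counts on genes in wild-type replicates 1 to 5. In Ndrg3 LKO replicates 1 to 5 they took 5.16, 3.74, 3.79, 5.30 and 3.41%. The lowest Ndrg3 LKO liver was thus above the highest wild-type liver, with means of 2.0 ± 0.238% and 4.28 ± 0.882% (SD, n = 5). Left out of the denominator, the 20 genes with the highest summed counts changed the shares to 2.31 to 3.12% and 4.32 to 6.21%. After TMM scaling, which sets the middle of all genes level between the libraries, the summed level was 18840 to 28560 CPM in wild-type and 27660 to 43240 in Ndrg3 LKO livers. On that scale the groups overlapped, since Ndrg3 LKO replicate 2 was below wild-type replicate 5. With library size alone as the scale, 76 of the 78 genes were called higher and their median log2 fold change was 1.07, but all genes then had a median of 0.56 and 52.1% of them were called higher. Relative to the median of all genes, the family stood 0.52 higher with TMM scaling and 0.51 higher with library size.

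**Figure D2:**
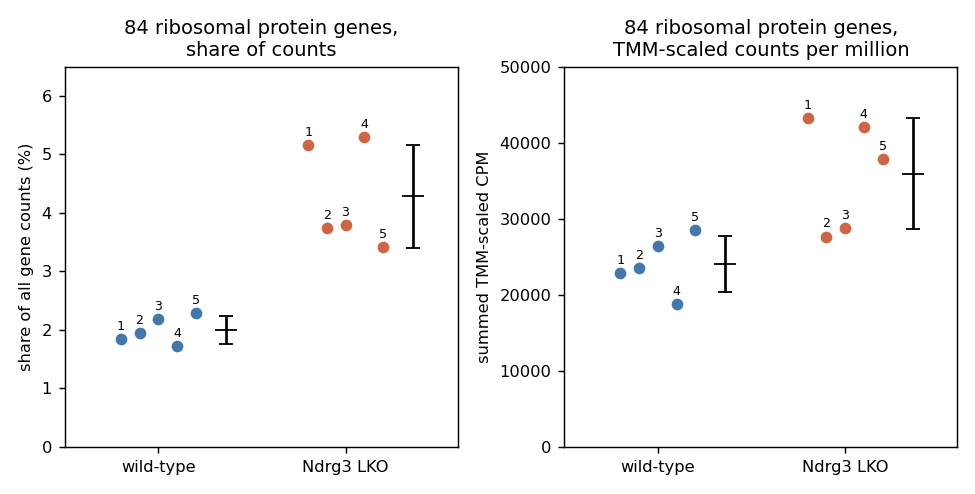
Share of all gene counts taken by the 84 ribosomal protein genes in each liver (left, in percent) and their summed TMM-scaled CPM (right), with the replicate number over each point and the mean ± SD beside each group. The 5 Ndrg3 LKO livers lie between 3.41 and 5.30% and all above the wild-type livers, while on the TMM scale Ndrg3 LKO replicates 2 and 3 lie near the upper wild-type livers.

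The livers of 1 genotype differed in the whole family at once. Set against the mean of the wild-type livers on the log2 CPM scale, the median over the 78 genes was 0.87, 0.21, 0.30, 0.81 and 0.65 in Ndrg3 LKO replicates 1 to 5. In the wild-type livers it was −0.05, −0.03, 0.14, −0.34 and 0.26. The number of genes above the highest wild-type liver was 74, 31, 41, 73 and 73 in the same order of Ndrg3 LKO livers. In replicate 5 the sum of the hepatocyte markers, though not *Apoa1*, *Cyp2e1* or *Serpina1a*, was within the wild-type range. Its rise of the family lay between those of replicates 3 and 4. Without replicate 2, 40 genes did not overlap, against 18.6% of all genes, and 61 were called higher, against 24.3%. Without replicate 3, 30 did not overlap, against 16.3%, and 58 were called, against 22.6%. These livers had the smallest rises, so more calls without them follow from that choice. Without replicate 1 or 4, with the largest rises, 41 and 42 were called, against 21.7% and 21.8%. In both fits 29 did not overlap, against 15.8% and 16.2%. With 1 wild-type liver left out, 39 to 52 were called, against 22.4 to 23.4%.

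**Figure D3:**
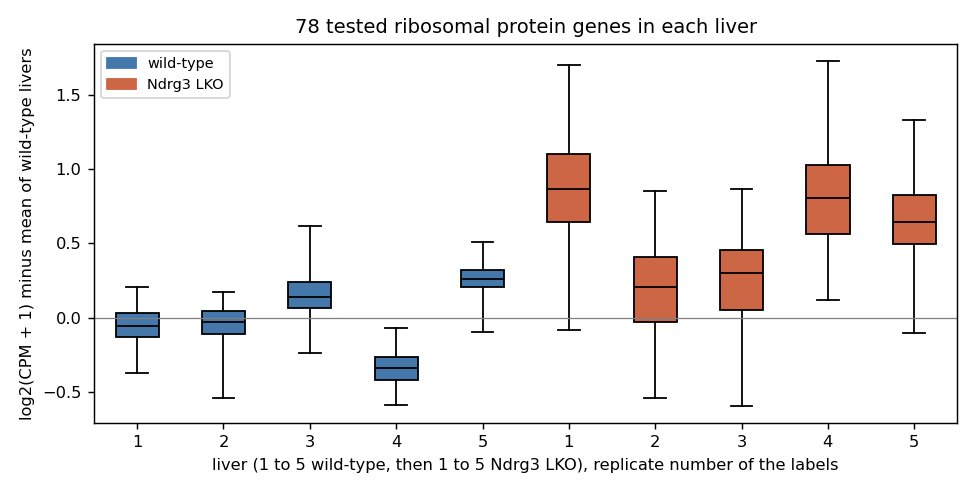
Log2 of TMM-scaled CPM of the 78 tested ribosomal protein genes in each liver, minus the mean of the 5 wild-type livers. Boxes show the quartiles, with whiskers to the lowest and highest gene. The + 1 named on the axis was not added to these values. The medians of Ndrg3 LKO replicates 1, 4 and 5 lie at 0.65 to 0.87 and those of replicates 2 and 3 at 0.21 and 0.30.

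Both subunits rose. Of the 44 tested genes of the large subunit, 29 were called higher with a median log2 fold change of 0.53. Of the 30 of the small subunit, 21 were called higher with a median of 0.65. Over all genes tested, 25.6% were called higher. The ratio of the counts of the large to those of the small subunit was 1.27 to 1.35 in wild-type and 1.16 to 1.29 in Ndrg3 LKO livers, and the groups overlapped in it. Of the 27 tested genes not called, 15 belonged to the large subunit, 9 to the small subunit and 3 were paralogs. A p that misses the threshold does not show that these genes did not rise, and 25 of the 27 had a log2 fold change above 0.

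The largest rise was that of *Rps12*, a protein of the beak of the small subunit, whose gene (chromosome 10, 23504990 to 23507015 on mm9, minus strand) holds 3 snoRNAs. It stood at 267, 246, 276, 228 and 338.5 CPM in wild-type replicates 1 to 5 and at 874, 486, 452, 853 and 624 in Ndrg3 LKO replicates 1 to 5. The lowest Ndrg3 LKO liver was above the highest wild-type liver. The log2 fold change was 1.28 (SE 0.22), a 2.43-fold difference (adjusted p = 0.000657 by the quasi-likelihood test of edgeR after Benjamini-Hochberg adjustment).

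*Rps19*, a protein of the head of the small subunit and the gene most often mutated in Diamond-Blackfan anaemia of people, came next. The wild-type livers measured 197, 208, 239, 160 and 269 CPM, against 611, 369.5, 354.5, 699 and 440.5 CPM in Ndrg3 LKO, with no overlap. Its log2 fold change was 1.21 (SE 0.22, edgeR adjusted p = 0.00116). *Rpl13a*, a large-subunit protein with 4 snoRNAs in its gene, measured 370, 331, 372, 288 and 472 CPM against 977, 635, 645, 1034 and 909. It too did not overlap, with a log2 fold change of 1.20 (SE 0.20, edgeR adjusted p = 0.000563).

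*Rps16*, a small-subunit protein whose tail reaches the transfer RNA in the peptidyl site, rose from 195 ± 24.1 to 379 ± 79.4 CPM (SD, n = 5), or by 0.96 on the log2 scale (SE 0.17, edgeR adjusted p = 0.000864). The lowest Ndrg3 LKO liver, at 294 CPM, was above the highest wild-type liver, at 231 CPM.

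The stalk of the large subunit, which recruits the elongation factors, consists of *Rplp0*, *Rplp1* and *Rplp2* on a base with *Rpl12*. Of these 4 genes, 3 were called higher, beside 65.4% of the family and 25.6% of all genes. *Rplp1* measured 693, 758, 934, 535 and 953 CPM in wild-type replicates 1 to 5 against 1662, 980, 953, 1656 and 1415 CPM in Ndrg3 LKO replicates 1 to 5, where the lowest Ndrg3 LKO liver lay just above the highest wild-type liver (log2 fold change 0.78, SE 0.23, edgeR adjusted p = 0.0136). *Rplp2* rose by 0.80 (SE 0.24, edgeR adjusted p = 0.0155) with overlapping groups, and *Rpl12* rose by 0.84 (SE 0.19, edgeR adjusted p = 0.0033) with no overlap. *Rplp0*, which anchors the other stalk proteins and is often used as a reference gene, measured 646 ± 106 against 794 ± 84.3 CPM (SD, n = 5), a log2 fold change of 0.30 (SE 0.16) that did not pass the test (edgeR adjusted p = 0.133).

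The proteins that carry the 5S ribosomal RNA and, outside the ribosome, bind the p53 regulator Mdm2 are *Rpl5* and *Rpl11*. *Rpl5* rose by 0.41 (SE 0.16, edgeR adjusted p = 0.0482), with 260 ± 42.5 against 346 ± 51.3 CPM. This call was lost in 5 of the 10 fits with 1 liver left out, without wild-type replicate 1, 2 or 4 or Ndrg3 LKO replicate 1 or 4, and the edgeR adjusted p over the 10 fits was 0.0298 to 0.105. *Rpl11* had 328 ± 41.9 against 412 ± 73.9 CPM and a log2 fold change of 0.33 (SE 0.16) that did not pass the test (edgeR adjusted p = 0.114). Both were below the median of the family.

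*Rps6*, the substrate of the S6 kinases, rose by 0.36 (SE 0.13, edgeR adjusted p = 0.0411), from 236 ± 25.3 to 304 ± 35.5 CPM, with overlapping groups. This call was lost in 6 of the 10 fits with 1 liver left out, without wild-type replicate 1, 2, 3 or 4 or Ndrg3 LKO replicate 1 or 4 (edgeR adjusted p of 0.0227 to 0.0883 over the 10 fits). *Rpsa*, a small-subunit protein that has also been described as a laminin receptor, rose from 785 ± 155 to 1348 ± 305 CPM without overlap, or by 0.78 (SE 0.21, edgeR adjusted p = 0.00826). *Rps27a*, made as a fusion with ubiquitin, rose from 396 ± 74.0 to 741 ± 213 CPM without overlap, or by 0.90 (SE 0.22, edgeR adjusted p = 0.0057). A gene annotated on the other strand overlaps *Rps27a*, and the strand setting of the counts was not given in the sources used here.

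The groups that follow stand beside a share called higher of 65.4% in the whole family and 25.6% of all genes. They are small and partly overlap, and differences between them were not tested. All 7 tested genes at the exit tunnel of the large subunit, through which the new protein leaves, were called higher. Their median was 0.66, with log2 fold changes from 0.40 for *Rpl4* to 0.91 for *Rpl35*. The call of *Rpl4* was lost without wild-type replicate 1, 2, 3 or 4 or Ndrg3 LKO replicate 1 or 4 (edgeR adjusted p of 0.00822 to 0.0735 with 1 liver left out). Their eighth member, *Rpl26*, was listed at 0 in every liver. At the decoding site and the entry of the messenger RNA, 4 of 6 were higher with a median of 0.57, and at the contact of head and platform 2 of 4 with a median of 0.60. Of the genes mutated in Diamond-Blackfan anaemia of people, 12 of 15 tested were higher, with a median of 0.57. The 29 tested genes with an annotated snoRNA inside had a median of 0.52 with 20 called higher, and the 48 without one a median of 0.57 with 31 called higher. Of the 4 X-linked genes, 3 were higher.

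Since a gene of the family could rise by less or more than the rest, the libraries were also scaled to the family itself, so that a difference is a departure from the common shift. On this scale 7 of the 78 genes were higher and 10 lower at an edgeR adjusted p of 0.05, where over all genes 6.93% were higher and 45.0% lower. Those higher included *Rps12* (0.68), *Rps19* (0.62), *Rpl13a* (0.62), *Rps26* (0.38), *Rps16* (0.38) and *Rpl35* (0.34), in log2 units above the family. *Rps26* sits at the exit of the messenger RNA, and *Rpl35* at the exit tunnel. The 10 were *Rpl34* (−0.68), *Rps4l* (−0.66), *Rps14* (−0.54), *Rpl10a* (−0.51), *Rpl28* (−0.51), *Rpl7a* (−0.48), *Rpl10* (−0.46), *Rpl23* (−0.45), *Rps18* (−0.42) and *Rps27l* (−0.39). The value of *Rpl34* rested on only 18 to 62 counts per liver, which do not give the level of this gene in the tissue.

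The genes that stayed behind the family had no call of their own with TMM scaling. *Rps14*, a platform protein of the small subunit, measured 418, 346, 434, 295 and 517 CPM in wild-type replicates 1 to 5 against 506, 272, 287, 468 and 539 CPM in Ndrg3 LKO, so that both groups covered nearly the same range. Its log2 fold change was 0.04 (SE 0.23, edgeR adjusted p = 0.889). *Rpl10a*, the protein of the mobile L1 stalk, measured 164, 173, 162, 133 and 215 CPM against 200, 137, 152, 188 and 200, a log2 fold change of 0.05 (SE 0.16, edgeR adjusted p = 0.818). *Rpl28* had 245 ± 29.6 against 260 ± 68.1 CPM (SD, n = 5) and a log2 fold change of 0.08 (SE 0.19, edgeR adjusted p = 0.746).

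*Rpl10*, an X-linked gene whose protein is among the last to join the large subunit, measured 660, 698, 671, 644 and 711 CPM in wild-type replicates 1 to 5 against 790, 586, 694, 828 and 770 CPM in Ndrg3 LKO. It varied little among the wild-type livers and showed both lower and higher values in the Ndrg3 LKO livers (log2 fold change 0.12, SE 0.14, edgeR adjusted p = 0.514). *Rps18*, a protein of the head of the small subunit, had 594 ± 113 against 663 ± 140 CPM and a log2 fold change of 0.16 (SE 0.19, edgeR adjusted p = 0.512). Like *Rpl35*, which departed upward, *Rps18* overlaps an annotated gene on the opposite strand, and so do *Rpl12*, *Rpl5*, *Rpl11* and *Rpl7l1*. Reads could also have been shared with processed copies, of which the annotation names 9 for *Rps19*, 8 for *Rpsa* and *Rpl7a* each and 5 for *Rps12*.

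Levels of different genes were compared only per length, as TMM-scaled CPM per kilobase of the median annotated transcript, for the 77 tested genes with a length. The median level was 397 per kilobase in wild-type and 608 in Ndrg3 LKO livers. *Rplp1* (1564 per kilobase), *Rps18* (1179) and *Rpl10* (936) were highest in wild-type livers, and *Rpl34* (2.37), *Rpl7l1* (31.7) and *Rps4l* (33.1) lowest. For *Rpl34* this is what was listed, and not its level in the tissue. The order of the levels was largely shared by the genotypes, with a Spearman correlation over the 77 genes of 0.922, given as a description since genes of the same libraries are not replicates. Within it, *Rps12* moved from rank 22 to rank 4, *Rps19* from 46 to 21 and *Rpl13a* from 43 to 17, while *Rpl10* moved from rank 3 to 11, *Rps14* from 11 to 29 and *Rpl7a* from 14 to 39. Across the family the log2 fold change had a Pearson correlation of −0.13 with the logarithm of transcript length (Spearman −0.18, n = 77) and 0.06 with GC content (Spearman 0.08, n = 77). With the log2 wild-type level the Pearson correlation was 0.18 and the Spearman correlation −0.12, so the sign depended on the measure (n = 78).

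**Figure D4:**
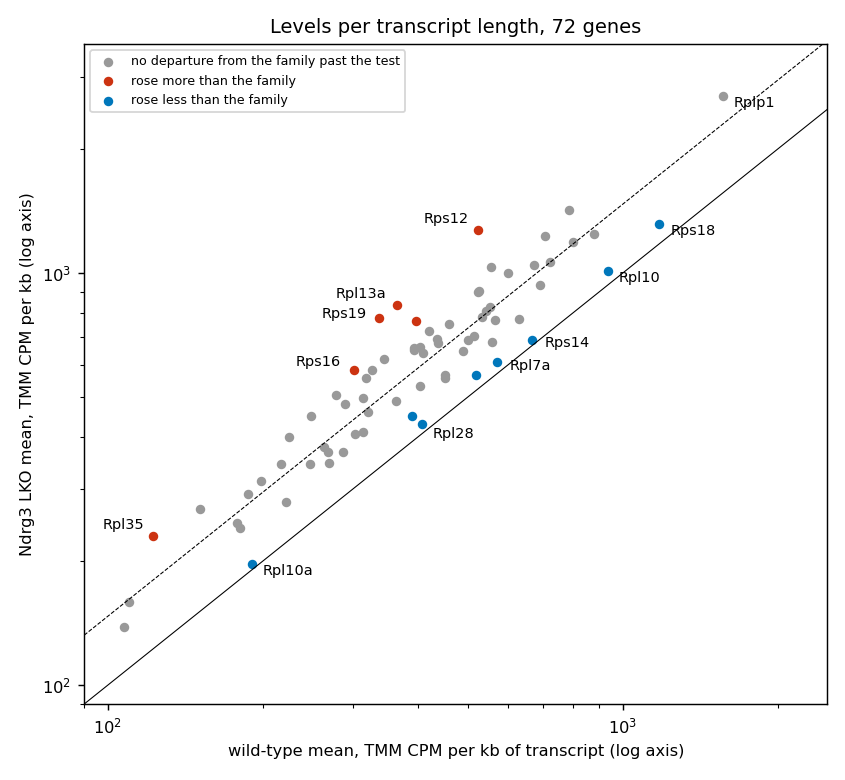
Mean TMM-scaled CPM per kilobase of transcript in wild-type (x) and Ndrg3 LKO livers (y), both on log axes, for 72 ribosomal protein genes, with 4 genes of low level below the axes not drawn. The solid line marks equal levels and the dashed line the median log2 fold change of the 78 tested genes. *Rps12*, *Rps19* and *Rpl13a* lie above the dashed line, and *Rpl10a*, *Rpl28*, *Rps14* and *Rpl10* lie near the solid line.

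Of the 7 paralogs, 4 were tested. *Rpl7l1*, a relative of *Rpl7*, was the 1 called higher, with 82.6 ± 8.40 against 111 ± 15.4 CPM (SD, n = 5) and a log2 fold change of 0.43 (SE 0.13, edgeR adjusted p = 0.0185, and 0.0536 without wild-type replicate 1). *Rpl22l1*, the relative of *Rpl22*, had a log2 fold change of 0.37 (SE 0.19, edgeR adjusted p = 0.122, and 0.0451 without Ndrg3 LKO replicate 3) and *Rps27l*, the relative of *Rps27* and a p53 target, 0.21 (SE 0.21, edgeR adjusted p = 0.433). *Rps4l*, a copy of the X-linked *Rps4x* on chromosome 6 of mm9 (148303178 to 148304120, plus strand), measured 30.5, 26.7, 46.5, 24.0 and 28.4 CPM in wild-type against 29.7, 27.3, 25.3, 33.1 and 28.2 CPM in Ndrg3 LKO livers. Apart from wild-type replicate 3 the livers of both genotypes lay between 24.0 and 33.1 CPM.

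Because the ratio of 2 genes of 1 liver does not depend on the scaling, paralogs were also compared with their canonical genes as ratios of counts, in 5 pairs. *Rps4l* amounted to 9.37, 5.92, 8.91, 7.79 and 6.43% of *Rps4x* in wild-type replicates 1 to 5 and to 3.72, 5.40, 5.04, 4.19 and 4.30% in Ndrg3 LKO replicates 1 to 5. Every Ndrg3 LKO liver was below every wild-type liver. The mean log2 ratio differed by −0.75 (SE 0.16), with p = 0.00794 by a 2-sided exact permutation test over all splits of the livers, the smallest p this design allows, and 0.0397 adjusted over the 5 pairs. *Rps4x* itself rose by 0.67 (SE 0.20, edgeR adjusted p = 0.0179). Reads that match both copies could have been split between them, and *Rps4l* lies opposite to an annotated gene on the other strand.

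*Rpl22l1* amounted to 32.1 to 41.4% of *Rpl22* in wild-type and 29.1 to 39.1% in Ndrg3 LKO livers, with a difference of the mean log2 ratio of −0.15 (SE 0.11, exact permutation p = 0.198, adjusted 0.331). *Rpl7l1* amounted to 12.5 to 17.8% and 10.2 to 23.0% of *Rpl7*, with a difference of 0.14 (SE 0.24, exact permutation p = 0.579, adjusted 0.579). For *Rpl3l* over *Rpl3* the difference was −1.31 (exact permutation p = 0.333, adjusted 0.417) and rested on 46 *Rpl3l* counts in wild-type replicate 5. For *Rps27l* over *Rps27* it was 1.09 (exact permutation p = 0.0238, adjusted 0.0595), on 5 to 12 *Rps27* counts per liver.

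**Figure D5:**
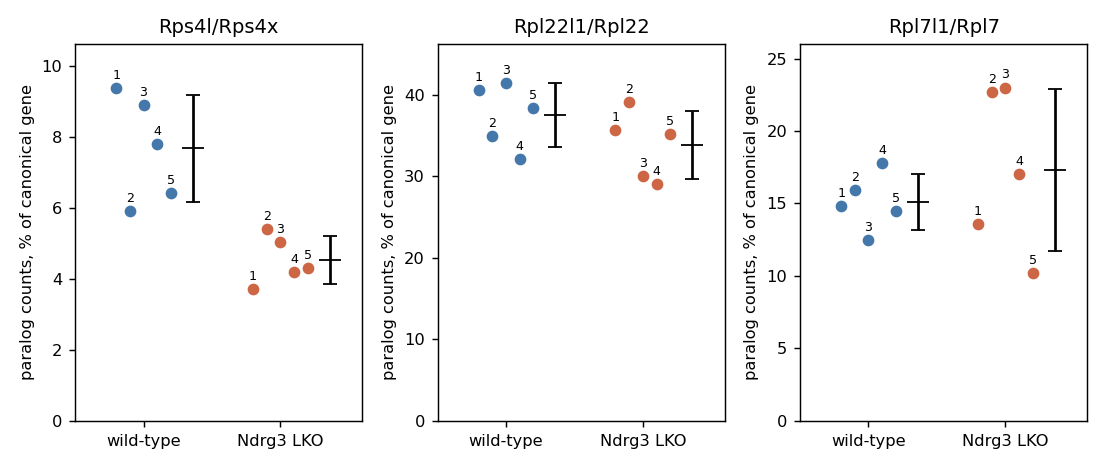
Counts of 3 paralogs as a percentage of the counts of their canonical gene in each liver, with the replicate number over each point and the mean ± SD beside each group. *Rps4l* over *Rps4x* lies between 5.92 and 9.37% in wild-type and between 3.72 and 5.40% in Ndrg3 LKO, while the groups overlap for the other pairs.

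The 6 genes that did not pass the filter on low counts were *Rpl26*, *Rpl30*, *Rps27* and the paralogs *Rpl3l*, *Rpl10l* and *Rpl39l*. *Rpl26* and *Rpl10l* were listed at 0 in every liver, *Rpl30* had 1 to 11 counts, *Rps27* 5 to 12 and *Rpl39l* 0 to 3. *Rpl3l*, known from muscle, had 0 to 4 counts in 9 livers and 46 in wild-type replicate 5. *Rpl26*, *Rpl30* and *Rps27* encode proteins of every ribosome, so these values and those of *Rpl34*, at 0.851 to 1.77 CPM, are what the tables list and not levels of the genes in the tissue. A floor of 3 counts corresponded to 0.138 to 0.179 CPM in wild-type and 0.0728 to 0.142 CPM in Ndrg3 LKO livers, for counting error only.

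A list of other genes ascribed a terminal oligopyrimidine start, mostly but not all of the translation machinery, moved less uniformly. The starts of these genes were not examined here. Of 22 tested, 4 were called higher and 2 lower, against 25.6% and 23.0% of all genes, with a median log2 fold change of 0.17. With library-size scaling 16 were higher, against 52.1% of all genes, and 0 lower. The 4 were the elongation factor subunit *Eef1g* (0.80, SE 0.16, edgeR adjusted p = 0.00201), the ribosomal protein gene *Rpl36al*, which the rule for the family did not take (0.63, SE 0.22, edgeR adjusted p = 0.0334), *Gnb2l1*, which encodes the ribosome-bound scaffold Rack1 (0.57, SE 0.16, edgeR adjusted p = 0.0118), and *Btf3*, of the nascent chain complex (0.56, SE 0.15, edgeR adjusted p = 0.00851). The initiation factor *Eif4b* fell by 0.84 (SE 0.12, edgeR adjusted p = 0.000228) and *Gltscr2* fell by 0.52 (SE 0.18, edgeR adjusted p = 0.0356). With 1 liver left out, the call of *Gltscr2* was lost in 7 of 10 fits, without wild-type replicate 2, 3 or 5 or Ndrg3 LKO replicate 1, 2, 3 or 4 (edgeR adjusted p of 0.00606 to 0.0891), and that of *Rpl36al* in 5, without wild-type replicate 1, 2 or 4 or Ndrg3 LKO replicate 1 or 4 (0.0112 to 0.0774). *Fau*, which encodes a ribosomal protein fused to a relative of ubiquitin, had a log2 fold change of 0.52 (SE 0.20, edgeR adjusted p = 0.0527) and passed without wild-type replicate 3 or 5 or Ndrg3 LKO replicate 2 or 3 (0.0207 to 0.11 with 1 liver left out). The elongation factors *Eef1a1* and *Eef2* had −0.30 and −0.25 (edgeR adjusted p = 0.135 and 0.172). Scaled to the ribosomal protein genes, 11 of these 22 genes were lower, against 45.0% of all genes, and 0 higher, against 6.93%.

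Among 18 regulators of mTORC1 and LARP1, 1 was higher and 3 were lower, against 25.6% and 23.0% of all genes, with a median log2 fold change of −0.01. With library-size scaling 8 were higher, against 52.1% of all genes, and 1 lower, against 8.97%. *Rheb*, the activator of the kinase, rose by 0.42 (SE 0.13, edgeR adjusted p = 0.0167). *Sesn1* and *Deptor*, inhibitors of the pathway, fell by 1.08 (SE 0.17, edgeR adjusted p = 0.000431) and 0.66 (SE 0.16, edgeR adjusted p = 0.00466), and the S6 kinase gene *Rps6kb1* fell by 0.83 (SE 0.13, edgeR adjusted p = 0.00048). *Larp1* had a log2 fold change of 0.16 (SE 0.16, edgeR adjusted p = 0.41). The activity of the pathway was not measured by these counts.

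Of 6 chaperones of single ribosomal proteins, 2 were higher and 1 lower, against 25.6% and 23.0% of all genes, and with library-size scaling 0 were lower, against 8.97%. *Ltv1*, which escorts Rps3, rose by 0.69 (SE 0.17, edgeR adjusted p = 0.00537), and *Grwd1*, which escorts Rpl3, by 0.54 (SE 0.17, edgeR adjusted p = 0.0218, lost without wild-type replicate 1 or 4 or Ndrg3 LKO replicate 4, at up to 0.0569). *Heatr3*, which imports Rpl5, fell by 0.60 (SE 0.13, edgeR adjusted p = 0.00292). Their clients had log2 fold changes of 0.43 for *Rps3* (edgeR adjusted p = 0.0549, passing without wild-type replicate 5 or Ndrg3 LKO replicate 2 or 3, at 0.0321 or more), 0.86 for *Rpl3* (edgeR adjusted p = 0.000444) and 0.41 for *Rpl5*. *Tsr2*, which escorts Rps26, had 0.03 (SE 0.15, edgeR adjusted p = 0.894), beside the rise of *Rps26* by 0.95 (SE 0.20, edgeR adjusted p = 0.0025). The mitochondrial ribosomal proteins, which serve a separate ribosome, had 27 of 77 tested genes higher and 0 lower, against 25.6% and 23.0% of all genes, with a median log2 fold change of 0.33, and 69 higher with library-size scaling, against 52.1%.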

How the data were processed

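RNA of whole liver was sequenced, 1 library per mouse. The deposited values are whole-number read counts per gene symbol, which the authors made by mapping paired reads of stranded mRNA libraries to mm9 and counting them with STAR, without normalization. The submitters' processing notes list bcl2fastq, Trim Galore 0.6.4, STAR 2.7.3a and Cufflinks 2.2.1, and the paper's methods name an earlier version of STAR. The annotation, the strand setting and the treatment of reads that match several copies are not given in the sources used here. No source used here mentions molecular identifiers, so reads are not independent molecules and a floor of 3 counts reflects counting error alone.

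Some results are not reported here. Members and gene lists were chosen with earlier results of these data known. Testing was limited to genes that reached 1 CPM in 5 or more livers and used edgeR 4.0.16 (R 4.3.3), TMM scaling, the quasi-likelihood test and Benjamini-Hochberg adjustment over all 11208 genes, at 0.05. Standard errors were derived from the log2 fold change and its F statistic. DESeq2 1.42.0 and limma 3.58.1 (pseudocount 1) served as alternatives. Ratios of paralogs used a pseudocount of 0.5 and exact permutation tests. Lengths came from the GENCODE annotation of mm9, found for 83 of 84 members, and starts from RefSeq on GRCm38.p6. Where several starts are listed, the one with the longest pyrimidine stretch was shown.

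Other alternatives changed the scaling, the filter or the threshold, corrected for transcript length or GC content by loess, used the replicate number as a block, or left out each liver in turn. The count of genes without overlap was recomputed without each liver, and the pyrimidine stretch with a purine before it, after the data had been seen. The genes described one by one are taken from the 5 largest rises (no member was called lower), every paralog, the stalk, the 5S carriers, *Rps6*, *Rpsa*, *Rps27a*, the 3 highest and lowest per length, departures from the family, untested members, and the largest changes of each list. *Rps16*, *Rpl35*, *Rpl7a*, *Rpl23*, *Rps18* and *Rps27l* as departures beyond the 5 largest in each direction, *Rps4x*, *Rpl4*, *Rpl3* and *Rps3*, and of the other lists *Rpl36al*, *Gnb2l1*, *Btf3*, *Fau*, *Eef1a1*, *Eef2*, *Larp1* and *Tsr2*, were chosen for description with their values in view. The tests were checked on simulated counts before use. There 100 genes each were changed by 0.5 and by 1 on the log2 scale among 11208, whereas in the livers 48.6% of genes were called. The adjustment is stricter when few genes change, so the numbers recovered do not give the power for the livers. In the simulation edgeR recovered 4 of 100 changes of 0.5 and 58 of 100 changes of 1, with 3 false calls. DESeq2 recovered 18 and 81, with 24 false calls, and limma 4 and 59, with 4. No 2 livers of a genotype were alike within sampling noise (20 pairs compared). The labels do not say that libraries came from separate litters or days. The p-values set the difference between the genotypes against the spread between these livers of a genotype.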

Additional observations from a re-analysis of the deposited data

Results flagged for a closer look

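Values far from the others of their group were found in 3 of the 74 groups of 5 livers examined, where chance flags about 1 in 20 groups. *Rpl3l* had 46 counts in wild-type replicate 5, against 0 to 3 in the other wild-type livers. *Rpl39l* had 1 count in wild-type replicate 5 and 0 in the other wild-type livers. *Rps4l* stood at 46.5 TMM-scaled CPM in wild-type replicate 3, against 24.0 to 30.5 in the others of its group.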

How the results depend on the processing

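The count of 51 genes called higher was 42 to 57 in several alternatives, where 18.5 to 28.7% of all genes were higher. These were median-of-ratios and upper-quartile scaling, TMM without the family, DESeq2, limma, both other filters and the length and GC corrections. The count was 76 with library-size scaling, against 52.1% of all genes, and 72 with quantile normalization, against 26.3%. It was 39 to 61 with 1 liver left out, against 21.7 to 28.0%. With a log2 fold change above 1 it was 4, a smaller share than the 11.4% of all genes. By construction, scaling to the family left 7 higher and 10 lower, and moved the median of 0.56 to −0.0216. The median was 1.07 with library-size scaling and 0.83 with quantile normalization, or 0.79 above the median of all genes. Under scaling to the family, signs turned by construction for many members, among them *Rpl7l1* (−0.103), *Rps27l* (−0.389), *Rpl5* (−0.149), *Rps6* (−0.194), *Rps18* (−0.416), *Rpl10* (−0.462), *Rps14* (−0.542), *Rpl10a* (−0.515) and *Rpl28* (−0.511). The cause of the other differences was not tested.

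For the other genes ascribed a pyrimidine start, the 4 higher and 2 lower became 16 and 0 with library-size scaling. They became 7 and 1 with upper-quartile scaling and with a mean CPM of at least 5, and 0 and 11 scaled to the family. The numbers were 11 and 1 with quantile normalization, 7 and 5 with DESeq2 and 0 and 0 above a log2 fold change of 1. With the length correction 4 were lower. The lower ones numbered 1 to 3 with 1 liver left out, and 1 without wild-type replicate 2, 3 or 5 or Ndrg3 LKO replicate 1, 2, 3 or 4. For the regulators of mTORC1 and LARP1, the 1 higher and 3 lower became 8 and 1 with library-size scaling, 0 and 7 scaled to the family and 0 and 1 above a log2 fold change of 1, 2 were higher with the GC correction and 5 lower with the length correction, and 1 to 2 were higher with 1 liver left out, the 2 without Ndrg3 LKO replicate 5. For the chaperones, the 2 higher and 1 lower became 0 and 4 scaled to the family and 0 and 0 above a log2 fold change of 1, 0 were lower with library-size scaling and 2 with the length correction, and with 1 liver left out 1 to 2 were higher (1 without wild-type replicate 1 or 4 or Ndrg3 LKO replicate 4) and 1 to 2 lower (2 without Ndrg3 LKO replicate 5). For the mitochondrial ribosomal proteins, the 27 higher and 0 lower became 69 higher with library-size scaling, 1 and 28 scaled to the family and 1 higher above a log2 fold change of 1, 2 were lower with the length correction, and 0 to 4 with 1 liver left out, the 4 without Ndrg3 LKO replicate 5.

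Outside the 20 highest genes the mean wild-type share was 2.7%. With a pseudocount of 5, the ratio of *Rpl3l* to *Rpl3* differed by −1.92 and that of *Rps27l* to *Rps27* by 1.06, but 5 exceeds the *Rpl3l* counts of 9 livers and is as large as the lowest *Rps27* count, so these values describe the pseudocount as much as the paralogs and are given without a test. With 1 liver left out, the latter was 0.929 to 1.32, passing the threshold without Ndrg3 LKO replicate 3, and that of *Rps4l* to *Rps4x* was −0.841 to −0.676, with an adjusted p of 0.0794 without Ndrg3 LKO replicate 1, 4 or 5, where the smallest raw p is 0.0159.

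The labels give both genotypes replicate numbers 1 to 5, but nothing ties equal numbers together, and their deviations correlated at −0.357 to 0.0363. With the number as a replicate block, 31 members were called higher, all among the 51, against 19.8% of all genes. In that fit 0 and 1 of the regulators and chaperones and 16 mitochondrial genes were higher. With block and length correction together 34 members and 1 chaperone were higher, against 19.9% of all genes. There 1 mitochondrial gene was lower, against 22.7%. The near-0 counts of *Rpl26*, *Rpl30*, *Rps27*, *Rpl34* and the rare paralogs limited what could be shown for them.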
